A study of Mus musculus with 12 samples.

Results

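The genes described are 8 transcription factors of skull and facial mesenchyme: the homeobox genes Prrx1, Prrx2, Alx1 and Six2, the forkhead genes Foxc1 and Foxc2, the AP-2 gene Tfap2a and the paired-box gene Pax3. They were chosen by name, by a rule that uses no measured value, though with earlier results of these data known. All 8 had a row among the 23358 rows of the deposited count table, and all 8 were among the 16190 genes tested after a filter on low counts. RNA was sequenced from frontal bone dissected on postnatal day 3 together with nasal bone and with both sutures at its borders, coronal and frontonasal. The design crossed strain with genotype, and each of the 4 groups had 3 samples: wild type C57BL/6 mice, C57BL/6 mice with 1 mutant copy of Fgfr2 (FGFR2 C342Y/+, the Crouzon mutation, named for a human syndrome of early suture closure), wild type BALB/c mice and BALB/c mice with the same mutant copy. The labels name no other allele and no treatment. The comparisons asked how the mutation acts in each strain and how the strains differ. The labels do not say whether the samples of a group came from separate animals, so the p-values measure the spread between these samples, part of which may be technical.

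The mesenchyme of the face and the frontal bone comes largely from the cranial neural crest, cells that leave the edge of the neural tube and migrate into the head. Tfap2a and Pax3 act early, in the specification of the neural plate border and the crest, whereas Prrx1, Prrx2, Alx1, Six2, Foxc1 and Foxc2 are used later, in the mesenchyme that patterns and grows the skeleton of the head. Sutures are fibrous strips of mesenchyme between bone plates, and Prrx1-expressing cells in them are known as skeletal stem and progenitor cells.

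Total counts ran from 27.2 M to 46.5 M per sample. Levels are given as CPM, counts per 1000000 counts of a library whose size was adjusted by edgeR's trimmed mean method. Among the C57BL/6 mutant samples replicate 4 stood apart: on the first principal component, which held 62.9% of the variance of all genes, it scored -69.2, nearer the C57BL/6 wild type samples (-116.7 to -89.6) than mutant replicates 5 and 6 (22.5 and 16.3). The run identifiers in the labels, which read as flow cells, were the same for all samples of a strain, so strain and run cannot be told apart. Sex is not in the labels, and 4 Y-linked genes summed to 152 to 161 CPM in all 3 C57BL/6 wild type samples but were above 2 CPM in only 1 sample of each other group. Markers of bone-forming cells were high in all groups: 8 osteoblast genes summed to 112662 to 195450 CPM in C57BL/6 wild type, 217533 to 260699 CPM in C57BL/6 mutant and 183908 to 209200 CPM in BALB/c samples. Fgfr2, counted over both alleles, was at 249 CPM ± 35.9 (SD, n = 3) in C57BL/6 wild type, 361 ± 20.6 in C57BL/6 mutant, 282 ± 11.4 in BALB/c wild type and 299.9 ± 24.95 in BALB/c mutant samples. A protein change in 1 allele cannot be seen in gene counts, so this level does not check the genotype labels.

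All 8 factors differed between the strains in wild type mice, where 48.5% of all genes did, and 3 of them differed between genotypes in C57BL/6, where 23.9% of all genes did. In BALB/c mutants 0 of 8 passed the test against wild type, beside 0.136% of all genes. The Foxc genes rose in C57BL/6 mutants towards the BALB/c level, and Pax3 fell. The Pax3 call held in 2 of 6 fits that left out 1 sample, and the Foxc2 call under 5 of 7 other settings. The genotype effect differed between strains past the threshold for 1 of the 8, Foxc1, a call that held in 6 of 12 fits that left out 1 sample. For this difference Prrx2, Foxc2 and Pax3 were called only under some of the alternatives given below. Calls are at 0.05 of the adjusted p, from edgeR's quasi-likelihood test with Benjamini-Hochberg adjustment over all genes tested, and differences are on the log2 scale, where 1 is a 2-fold difference.

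**Figure D1:**
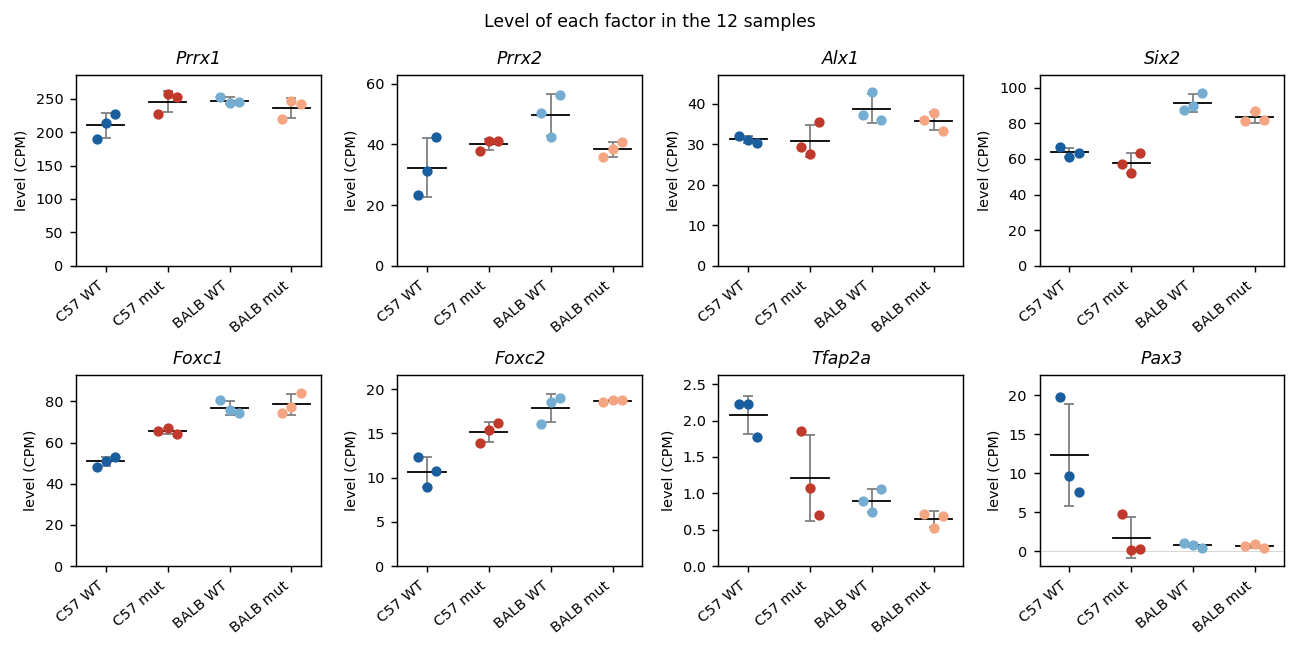
Level in CPM (linear axis from 0) of the 8 factors in each of the 12 samples, by group (WT, wild type and mut, mutant), where points are samples, the black line is the group mean and the grey bar is 1 SD. Foxc1 and Foxc2 are lowest in the 3 C57BL/6 wild type samples, Six2 is higher in all 6 BALB/c samples than in all 6 C57BL/6 samples, and Pax3 is above 4 CPM in the C57BL/6 wild type samples and in C57BL/6 mutant replicate 4 alone.

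Prrx1 and Prrx2 are paired-related homeobox paralogues whose combined loss in mice disturbs the skull and jaw. Prrx1 lies at chr1:163245119-163313650 on the minus strand (coordinates of the authors' table, mouse build mm10) and Prrx2 at chr2:30845367-30881247 on the plus strand. Their proteins share a homeodomain, the part that binds DNA, and the coding stretches that encode it are similar. The stretches below show how far the paralogues can be told apart in sequence, and thus in counts. They are windows of 180 bases of the coding sequence of the GENCODE transcripts of GRCm38, each across exons 2 and 3, read on the coding strand, with capitals at the bases that differ between the paralogues.
Prrx1: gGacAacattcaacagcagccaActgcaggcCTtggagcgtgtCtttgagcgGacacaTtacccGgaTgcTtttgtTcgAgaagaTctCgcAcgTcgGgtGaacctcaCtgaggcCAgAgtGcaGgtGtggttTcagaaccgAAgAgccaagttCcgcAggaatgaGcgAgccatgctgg
Prrx2: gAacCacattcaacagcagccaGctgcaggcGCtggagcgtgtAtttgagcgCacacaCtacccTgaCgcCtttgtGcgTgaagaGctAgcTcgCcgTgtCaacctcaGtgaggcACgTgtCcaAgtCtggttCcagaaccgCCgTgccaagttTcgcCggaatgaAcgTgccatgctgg
The Prrx1 window spans chr1:163257888-163261964 and the Prrx2 window chr2:30878467-30879546, introns included. They differed at 34 bases (81.1% identity), and the longest identical run was 17 bases. None (0%) of the 50-base words of the Prrx2 transcripts and 0.153% of those of the Prrx1 transcripts occurred in a transcript of another gene.

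Prrx1 was the most evenly expressed of the 8, with the highest sample 1.36 times the lowest. It read 189, 214 and 227 CPM in C57BL/6 wild type samples and 227, 257 and 252 CPM in C57BL/6 mutants. In BALB/c it read 252, 243 and 246 CPM in wild type samples and 219, 247 and 242 CPM in mutants. The C57BL/6 wild type range ended just below the lowest C57BL/6 mutant sample. The BALB/c groups overlapped, and BALB/c mutant replicate 16 was below C57BL/6 wild type replicate 3. The C57BL/6 genotype difference of 0.23 (SE 0.078) missed the threshold (adjusted p 0.0539). It passed without mutant replicate 4 (0.28, adjusted p 0.0256), without wild type replicate 3 (0.28, adjusted p 0.0321) and with DESeq2 (adjusted p 0.0173). With total count scaling it fell to 0.034 (adjusted p 0.651). The strain difference in wild type, BALB/c over C57BL/6, was 0.24 (SE 0.078, adjusted p 0.0257). That call was lost with total count scaling (0.13, adjusted p 0.0688), with a Y-linked covariate (adjusted p 0.0939) and without C57BL/6 wild type replicate 1 (0.17, adjusted p 0.0912) or BALB/c wild type replicate 13 or 15 (adjusted p 0.0785 and 0.0527).

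Prrx2 varied more, with the highest sample 2.42 times the lowest. It read 23.2, 31.1 and 42.6 CPM in C57BL/6 wild type samples and 37.8, 41.1 and 41.0 CPM in C57BL/6 mutants. In BALB/c the wild type samples read 50.3, 42.3 and 56.3 CPM and the mutants 35.9, 38.4 and 40.8 CPM. The C57BL/6 wild type samples alone spanned the levels of the mutants of both strains, and the BALB/c wild type samples all lay above the BALB/c mutants. That BALB/c difference was -0.37 (SE 0.170) and did not pass the test (adjusted p 0.427, edgeR). The strain difference in wild type was 0.62 (SE 0.171, adjusted p 0.0109), although C57BL/6 replicate 3 lay above BALB/c replicate 14. In C57BL/6 the genotype difference was 0.31 (SE 0.171, adjusted p 0.206), and it became a call only without wild type replicate 3 (0.56, adjusted p 0.0159). It fell to 0.14 without wild type replicate 1 (adjusted p 0.53) and to 0.13 with total count scaling (adjusted p 0.516). The interaction of -0.68 (SE 0.241) was larger than that of Foxc1 but did not pass (adjusted p 0.0896), whereas it did with DESeq2 (-0.68, adjusted p 0.0344) and without C57BL/6 wild type replicate 3 (-0.92, adjusted p 0.0135).

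The balance of the Prrx paralogues within a library does not depend on how libraries are scaled. Per kilobase of gene model, the ratio of Prrx2 to Prrx1 was 1.00 ± 0.217 (SD, n = 3) in C57BL/6 wild type, 1.08 ± 0.021 in C57BL/6 mutant, 1.33 ± 0.182 in BALB/c wild type and 1.07 ± 0.043 in BALB/c mutant samples. Per kilobase the ratio was close to 1 in both mutant groups, and the wild type samples ran from 0.81 to 1.51. In BALB/c all wild type samples (1.15 to 1.51) lay above all mutants (1.03 to 1.11), while the C57BL/6 genotypes overlapped. Within 1 strain the ratio was not tested, since 3 samples against 3 cannot give an exact p below 0.10. Averaged over strains the log2 ratio differed between mutant and wild type by -0.09, with opposite signs in C57BL/6 (0.12) and BALB/c (-0.30). An exact two-sided permutation test of genotype within strain (400 relabellings, smallest possible p 0.005) gave p = 0.49, and 0.49 after Benjamini-Hochberg adjustment over the 2 ratios tested.

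Alx1, at chr10:103007847-103028777 on the minus strand, encodes an aristaless-like homeobox factor needed for the midface, and its loss leaves the face and the skull base malformed. It read 32.2, 31.1 and 30.3 CPM in C57BL/6 wild type and 29.4, 27.7 and 35.4 CPM in C57BL/6 mutant samples. In BALB/c it read 37.3, 42.9 and 36.1 CPM in wild type and 36.0, 37.8 and 33.4 CPM in mutant samples. The genotypes overlapped in both strains, while the 3 BALB/c wild type samples all lay above the 3 C57BL/6 wild type samples. This strain difference was 0.31 (SE 0.094, adjusted p 0.0162) and fell to 0.20 with total count scaling, where it was not called (adjusted p 0.154). The call was also lost without C57BL/6 wild type replicate 3 (adjusted p 0.0524) or BALB/c wild type replicate 14 (0.23, adjusted p 0.077). The genotype differences were -0.02 (SE 0.094, adjusted p 0.913) in C57BL/6 and -0.12 (SE 0.094, adjusted p 0.697) in BALB/c. Exons of Alx1 overlap those of the predicted gene Gm17028 on the same strand, which shares 3.29% of the 50-base words of Alx1 transcripts, so part of its counts is uncertain.

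Six2, at chr17:85684268-85688254 on the minus strand, encodes a homeobox factor known for keeping kidney progenitors undifferentiated and also expressed in the mesenchyme of the face and skull base. In C57BL/6 it read 66.5, 61.2 and 63.6 CPM in wild type and 56.98, 52.2 and 63.4 CPM in mutant samples. In BALB/c it read 87.4, 89.8 and 97.2 CPM in wild type and 81.2, 86.6 and 81.9 CPM in mutant samples. Every BALB/c sample lay above every C57BL/6 sample. The difference, BALB/c over C57BL/6, was 0.52 (SE 0.071, adjusted p 0.000153) in wild type and 0.53 (SE 0.070, adjusted p 0.000142) in mutants, and the interaction was 0.01 (SE 0.10, adjusted p 0.954). The genotype differences were -0.15 (SE 0.071, adjusted p 0.14) in C57BL/6 and -0.14 (SE 0.070, adjusted p 0.494) in BALB/c, and neither passed. With total count scaling the C57BL/6 value was -0.35 and was called (adjusted p 0.0165), a setting that moved the median of all genes by -0.20.

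Foxc1 and Foxc2 are forkhead paralogues of mesoderm and neural crest mesenchyme. Foxc1 is needed for the meninges and the skull vault, and its loss in mice leaves calvarial bones unformed. Foxc1 lies at chr13:31806646-31810635 and Foxc2 at chr8:121116171-121118894, both on the plus strand and each in a single exon. Their counts can be told apart: 0.069% of the 50-base words of Foxc1 transcripts and 0.149% of those of Foxc2 occurred in the other gene.

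Foxc1 rose in C57BL/6 mutants. It read 48.4, 51.2 and 52.9 CPM in C57BL/6 wild type and 65.7, 67.1 and 64.4 CPM in C57BL/6 mutant samples. In BALB/c it read 80.8, 76.0 and 74.3 CPM in wild type and 74.4, 77.3 and 84.3 CPM in mutant samples. C57BL/6 wild type samples lay below all C57BL/6 mutants and these below every BALB/c sample, whereas the BALB/c genotypes overlapped. The C57BL/6 genotype difference was 0.37 (SE 0.058, adjusted p 0.00173, edgeR). It was called in all 6 fits that left out 1 sample and under the 7 other settings tried, with values from 0.18 (total count scaling, adjusted p 0.0423) to 0.40. In BALB/c the difference was 0.03 (SE 0.058, adjusted p 0.903).

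Foxc2 was also lowest in C57BL/6 wild type samples, at a lower level than Foxc1, and C57BL/6 mutant replicate 6 lay just above BALB/c wild type replicate 13. It read 12.3, 8.91 and 10.7 CPM in C57BL/6 wild type and 13.9, 15.4 and 16.2 CPM in C57BL/6 mutant samples. In BALB/c it read 16.1, 18.6 and 19.0 CPM in wild type and 18.6, 18.7 and 18.8 CPM in mutant samples. All C57BL/6 wild type samples lay below all others, and the BALB/c genotypes overlapped. The genotype difference was 0.51 (SE 0.112, adjusted p 0.00909) in C57BL/6 and 0.06 (SE 0.111, adjusted p 0.896) in BALB/c. The C57BL/6 call held in all 6 fits that left out 1 sample. It was lost with total count scaling (0.30, adjusted p 0.118) and in a fit of the C57BL/6 samples alone (adjusted p 0.0548).

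The genotype effect on Foxc1 was smaller in BALB/c than in C57BL/6 by 0.34 (interaction -0.34, SE 0.082, adjusted p 0.0279). The call held in 6 of 12 fits with 1 sample removed (adjusted p 0.0235 to 0.074), among them the fit without C57BL/6 mutant replicate 4 (-0.34, adjusted p 0.0279). It was lost without C57BL/6 mutant replicate 5 or 6, BALB/c wild type replicate 13 or 14 or BALB/c mutant replicate 16 or 17 (-0.35 to -0.30), and with a Y-linked covariate (-0.29, adjusted p 0.0552). With total count scaling it was -0.11 (adjusted p 0.365). For Foxc2 the interaction of -0.45 (SE 0.158) did not pass (adjusted p 0.0878), though it did without C57BL/6 wild type replicate 1 (-0.58, adjusted p 0.0383) or C57BL/6 mutant replicate 4 (-0.50, adjusted p 0.0491), so a difference between strains is not shown for it. The ratio of Foxc2 to Foxc1 per kilobase was 0.308 ± 0.060 (SD, n = 3) in C57BL/6 wild type, 0.338 ± 0.029 in C57BL/6 mutant, 0.342 ± 0.044 in BALB/c wild type and 0.349 ± 0.021 in BALB/c mutant samples. These ranges overlapped in both strains, and the log2 ratio differed between genotypes by 0.09 on average (exact permutation p = 0.40, adjusted 0.49). Foxc1 is also a marker of the meninges, and with it in the list 6 meningeal genes summed to 111 to 135 CPM in C57BL/6 wild type and 84.1 to 107 CPM in C57BL/6 mutant samples. Within that list Aldh1a2 read 34.2, 22.3 and 21.5 CPM in C57BL/6 wild type and 17.2, 6.11 and 8.03 CPM in C57BL/6 mutant samples. Crabp2 and Cldn11 were also lower in every C57BL/6 mutant than in any C57BL/6 wild type sample. Slc6a13 and Ptgds were at or below 0.602 CPM in all samples of both groups, and Foxc1, itself part of the sum, was higher in the mutants. The osteoblast sums given above were higher in all C57BL/6 mutants than in all C57BL/6 wild type samples, and the 6 measured of 7 erythroid genes summed to 46.2 to 73.1 CPM in C57BL/6 mutants against 176 to 239 CPM in wild type. The 5 endothelial genes, all detected, summed to 326 to 391 CPM in C57BL/6 wild type, 404 to 491 CPM in C57BL/6 mutant, 378 to 439 CPM in BALB/c wild type and 382 to 414 CPM in BALB/c mutant samples, without overlap in C57BL/6. The part of these cells in the Foxc results was not tested. In bulk RNA fewer cells of a type and less RNA per cell cannot be told apart, for these and the other factors.

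Tfap2a, at chr13:40715675-40733823 on the minus strand, encodes AP-2 alpha, which acts in neural crest and surface ectoderm and is also known from epidermis. It was scarce, with 24 to 86 counts per sample. It read 2.23, 2.23 and 1.77 CPM in C57BL/6 wild type and 1.85, 1.07 and 0.70 CPM in C57BL/6 mutant samples. In BALB/c it read 0.90, 0.74 and 1.05 CPM in wild type and 0.72, 0.52 and 0.69 CPM in mutant samples. The C57BL/6 wild type samples and mutant replicate 4 were the 4 highest, and replicate 4 alone made the C57BL/6 genotypes overlap. The strain difference in wild type was -1.20 (SE 0.345, adjusted p 0.0129). The C57BL/6 genotype difference of -0.78 (SE 0.336) was not called (adjusted p 0.108), and without mutant replicate 4 it was -1.23 and was called (adjusted p 0.0139). Exons of 3 predicted genes, Gm26688, Gm47061 and Gm47067, overlap Tfap2a on the opposite strand, and since the strand setting of the counting is not stated, their reads cannot be separated from its own.

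Pax3, at chr1:78101267-78197136 on the minus strand, encodes a paired-box factor of the neural plate border, muscle precursors and the melanocyte lineage. It varied most, with the highest sample 102 times the lowest. The 3 C57BL/6 wild type samples held 762, 320 and 284 counts (19.8, 9.64 and 7.61 CPM). The C57BL/6 mutants held 212 in replicate 4, 8 in replicate 5 and 10 in replicate 6 (4.79, 0.194 and 0.269 CPM). The BALB/c samples held 14 to 40 counts, at 1.05, 0.80 and 0.47 CPM in wild type and 0.72, 0.86 and 0.34 CPM in mutants. Pax3 was thus above 4 CPM in the C57BL/6 wild type samples and 1 C57BL/6 mutant and near 1 CPM or below in the other 8 samples. The C57BL/6 groups did not overlap, and Pax3 fell by 2.80 (SE 0.904, adjusted p 0.0426, edgeR). The call was lost without wild type replicate 1 (-2.27, adjusted p 0.138) or 2 (adjusted p 0.0606) and without mutant replicate 5 (adjusted p 0.0894) or 6 (adjusted p 0.112). It was lost too with a Y-linked covariate (adjusted p 0.0504) and in a fit of the C57BL/6 samples alone (adjusted p 0.143). Without mutant replicate 4 it was kept, at -5.73 (adjusted p 3.18e-05). The strain difference in wild type was -4.00 (SE 0.986, adjusted p 0.00585), the largest of the 8. In mutants it was -1.46 (SE 0.942, adjusted p 0.248), and it turned to 1.48 (adjusted p 0.0839) without replicate 4.

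Pax3 and Tfap2a were high in the same samples as markers of nasal lining. A list of 8 genes of ciliated and secretory nasal epithelium, 7 of them in the table, summed to 200 to 622 CPM in C57BL/6 wild type samples and to 122 CPM in C57BL/6 mutant replicate 4. In the other 8 samples it summed to 3.69 to 4.80 CPM, and 4 of its 7 genes were at 0 in all BALB/c wild type samples. All 6 genes of a stratified epithelium list were detected, and their sum ran from 71.0 to 257 CPM in C57BL/6 wild type and was 37.5 CPM in mutant replicate 4, against 2.47 to 5.94 CPM elsewhere. The 6 olfactory neuron genes, all detected, summed to 205 to 303 CPM in C57BL/6 wild type, 195 CPM in mutant replicate 4 and 79.3 to 140 CPM elsewhere. Adcy3 made up most of the sum elsewhere (71.2 to 133.5 CPM), while Omp, which defines mature olfactory neurons, read 36.1 to 99.97 CPM in those 4 samples and 0.30 to 0.70 CPM in the other 8. The 5 measured genes of 6 in a cartilage list summed to 4552 to 6680 CPM in C57BL/6 wild type, 2563 CPM in mutant replicate 4 and 236 to 251 CPM in the other C57BL/6 mutants, with 549 to 4764 CPM in BALB/c. The part of these cells in the Pax3 and Tfap2a results was not tested.

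Pax3 is also known from muscle precursors and the pigment lineage, whose markers are given beside it. The 4 muscle precursor genes summed to 3.00 to 6.96 CPM in C57BL/6 wild type and 0.293 to 2.04 CPM elsewhere. Most of that in C57BL/6 wild type replicates 1 and 3 was Pax7 (6.76 and 2.95 CPM), with Myod1 at 0 in both. Skeletal muscle genes summed to 427 CPM in BALB/c mutant replicate 16 and 78.5 CPM in C57BL/6 wild type replicate 2, and Pax3 was low in the first of these. Melanocyte genes summed to 13.2 to 18.5 CPM in C57BL/6 wild type, 16.4 to 18 CPM in C57BL/6 mutants and 9.08 to 12.9 CPM in BALB/c samples. Of the 6, Mitf (8.89 to 13.6 CPM), Pmel (1.23 to 3.55 CPM) and Tyr (1.77 to 3.48 CPM) were present in every C57BL/6 sample, while Dct and Tyrp1 were at 0 in all but wild type replicate 2. Mlana was at or below 0.12 CPM in all 6 C57BL/6 samples. The BALB/c samples read 7.09 to 10.7 CPM for Mitf and 1.32 to 2.17 CPM for Pmel, with Tyr at or below 0.22 CPM. Glial genes summed to 433 CPM in BALB/c mutant replicate 16 and 35.8 to 119 CPM elsewhere.

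**Figure D2:**
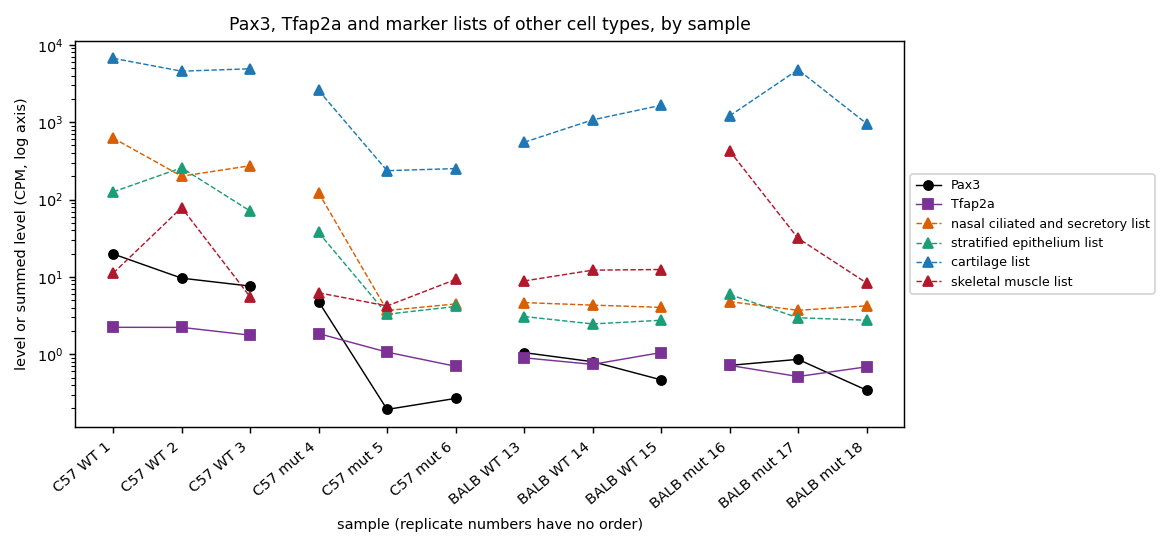
Level of Pax3 and Tfap2a and summed level of 4 marker lists (CPM, log axis) in each of the 12 samples, with lines joining samples of a group only to guide the eye. Pax3, the nasal list and the stratified epithelium list are high in the 3 C57BL/6 wild type samples and in C57BL/6 mutant replicate 4 (122 CPM of the nasal list) and low in the other 8, while the muscle list peaks in BALB/c mutant replicate 16 at 427 CPM.

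Read together over the comparisons, 3 of 8 factors were called for genotype in C57BL/6 (2 higher, 1 lower), where 23.9% of all genes tested were called (11.3% higher, 12.6% lower). The median difference of the 8 was 0.10 against -0.004 over all genes. The count was 5 without mutant replicate 4, with Prrx1 and Tfap2a added, where 4833 of 16500 genes were called. Without wild type replicate 3 it was 5 too, with Prrx1 and Prrx2 added, where 3671 of 16447 genes were called. The main fit called 3867 of 16190. In BALB/c the count was 0 of 8, against 0.136% of all genes (0.0926% higher, 0.0432% lower), with a median of -0.13 against 0.00. It was also 0 at an unadjusted p under 0.05 (11.7% of all genes) and 0 with DESeq2 (2% of all genes). Under the interaction 1 of 8 was called, in the negative direction (10% of all genes, 5.46% positive and 4.58% negative), with a median of -0.20 against 0.01.

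Between strains in wild type, all 8 factors were called, 6 higher and 2 lower in BALB/c, where 48.5% of all genes were (22.8% higher, 25.6% lower). The 6 mesenchymal factors were higher in BALB/c, from Prrx1 at 0.24 and Alx1 at 0.31 to Foxc1 at 0.60 (SE 0.059, adjusted p 1.86e-05) and Foxc2 at 0.75 (SE 0.113, adjusted p 0.000307). Tfap2a and Pax3 were lower. The nasal epithelium list summed to 200 to 622 CPM in C57BL/6 wild type and 4.04 to 4.66 CPM in BALB/c wild type samples. The cartilage list summed to 4552 to 6680 CPM in the first and 549 to 1651 CPM in the second. The part of these tissues in the strain differences of the 8 factors was not tested. The median of the 8 was 0.42 against -0.001 over all genes. In mutants 3 of 8 were called (36.9% of all genes, 18% higher and 18.9% lower), all higher in BALB/c: Six2, Foxc1 (0.26, SE 0.058, adjusted p 0.00461) and Foxc2 (0.30, SE 0.111, adjusted p 0.0492). The median of the 8 in mutants was 0.08 against -0.004. Foxc2 lost this call in each of the 6 fits that left out 1 sample (adjusted p 0.0518 to 0.134). The genotype and strain comparisons share samples, so the C57BL/6 wild type values enter the genotype, the strain and the interaction result alike.

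**Figure D3:**
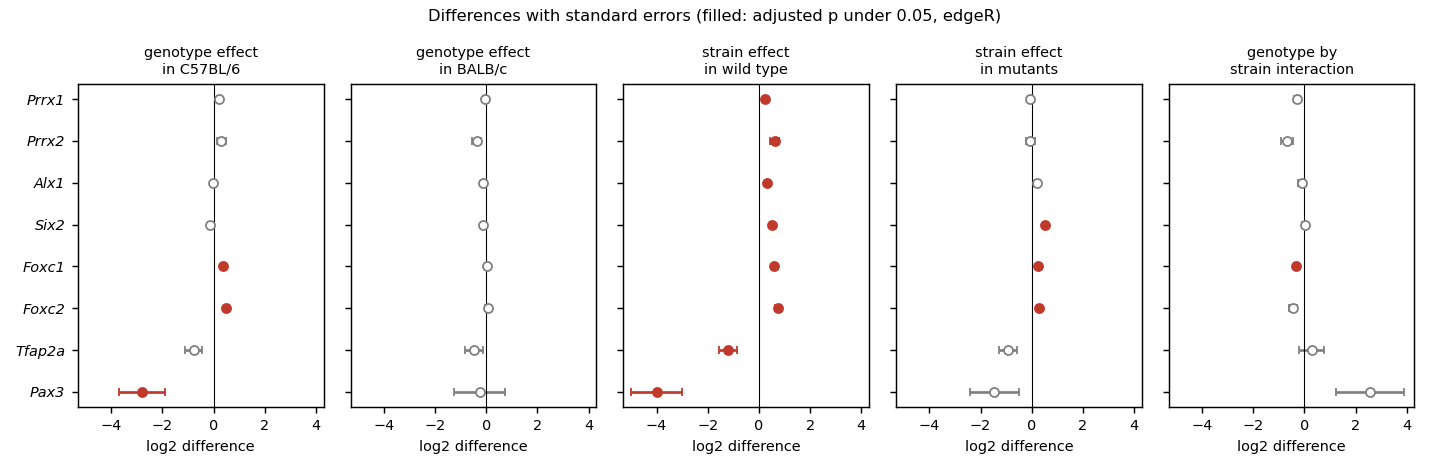
Log2 difference (horizontal axis) with its standard error for the 8 factors in the 5 comparisons, mutant over wild type, BALB/c over C57BL/6, and for the interaction the BALB/c genotype effect minus the C57BL/6 one. Filled points passed an adjusted p of 0.05 with edgeR: 3 of 8 for genotype in C57BL/6, 0 of 8 in BALB/c, 8 of 8 for strain in wild type, 3 of 8 for strain in mutants and 1 of 8 for the interaction.

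In the authors' deposited table of comparisons, 4 of the 8 genes had q under 0.05 for genotype in C57BL/6 (Prrx1, Foxc1, Foxc2 and Pax3), 0 for genotype in BALB/c, 7 for strain in wild type (all but Alx1) and 4 for strain in mutants. The share of all its genes with q under 0.05 is not given here, so these counts stand without a baseline. That table gives Prrx1 a log2 fold change of 0.21 (q 0.0431) and Pax3 one of -1.49 (q 1.51e-06) for genotype in C57BL/6.

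To compare genes with each other, CPM was divided by the length of the gene model in the authors' table. Over the 12 samples Prrx2 (35.5 CPM per kilobase ± 7.41, SD), Six2 (35.1 ± 7.08) and Prrx1 (31.5 ± 2.68) were the highest, and their ranges over samples overlapped. Foxc1 (17.1 ± 3.00) and Alx1 (13.7 ± 1.72) came next and overlapped each other. Foxc2 (5.73 ± 1.27), Pax3 (1.00 ± 1.54) and Tfap2a (0.369 ± 0.194) were lowest. The order changed between groups. Six2 led in C57BL/6 wild type and BALB/c mutant samples and Prrx2 in the other groups, with a gap to the next gene that exceeded the spread only for Six2 in BALB/c mutants. Foxc1 and Alx1 overlapped only in C57BL/6 wild type samples, at 12.7 ± 0.574 and 12.5 ± 0.367, and in the other 3 groups Foxc1 lay above Alx1 in every sample. Pax3, at 3.19 ± 1.69 in C57BL/6 wild type, overlapped Foxc2 there and Tfap2a in each other group.

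**Figure D4:**
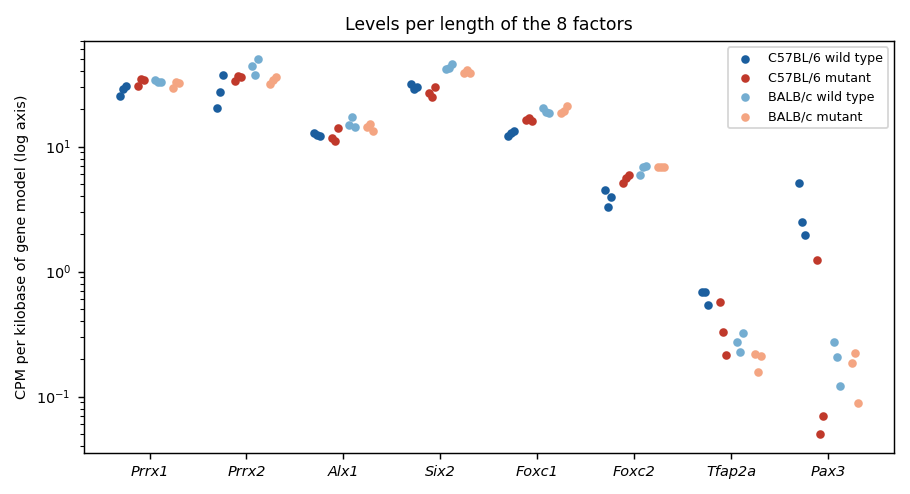
CPM per kilobase of gene model (log axis) of the 8 factors in the 12 samples, coloured by group. Prrx1, Prrx2 and Six2 share the top level (24.8 CPM per kilobase or more for Six2), Tfap2a and Pax3 the bottom, and Pax3 spreads from 0.050 to 5.12.

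The genes with the most similar profiles were found by the root mean square difference of log2 CPM over the 12 samples, each gene centred on its own mean, among 12733 candidates. For Foxc1 they were Uqcrfs1 (0.043) and Mpdu1 (0.070), for Six2 Sdr39u1 (0.067) and Nol7 (0.074), and for Prrx1 Ergic3 (0.042) and Ano10 (0.043). For Prrx2 they were Ydjc (0.112) and Wnt10b (0.114), for Alx1 Dpysl4 (0.070) and Atp9a (0.075), and for Foxc2 Rinl (0.113) and Clec12a (0.119). Pax3 was nearest to Stmn4 (0.403) and Tex15 (0.408). No member was among the nearest 2 genes of another, and all profiles share the same libraries.

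Promoter sequence was looked at because the mesenchymal factors shared a direction between the wild type strains. The RefSeq table of GRCm38.p6 promoters held 5 of the 8 genes (Prrx1, Prrx2, Six2, Foxc1 and Tfap2a). Shown are the stretches upstream of the start that hold no annotated exon, read on the gene's strand, for 3 genes that were higher in BALB/c wild type samples, with motif matches in capitals.
Prrx1: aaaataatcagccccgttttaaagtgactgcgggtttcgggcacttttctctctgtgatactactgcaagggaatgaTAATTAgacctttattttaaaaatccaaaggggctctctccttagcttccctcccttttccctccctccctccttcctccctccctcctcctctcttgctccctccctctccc
Six2: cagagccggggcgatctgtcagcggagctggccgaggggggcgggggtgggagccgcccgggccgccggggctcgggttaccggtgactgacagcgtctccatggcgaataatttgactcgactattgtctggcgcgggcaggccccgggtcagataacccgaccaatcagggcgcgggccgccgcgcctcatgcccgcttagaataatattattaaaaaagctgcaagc
Foxc1: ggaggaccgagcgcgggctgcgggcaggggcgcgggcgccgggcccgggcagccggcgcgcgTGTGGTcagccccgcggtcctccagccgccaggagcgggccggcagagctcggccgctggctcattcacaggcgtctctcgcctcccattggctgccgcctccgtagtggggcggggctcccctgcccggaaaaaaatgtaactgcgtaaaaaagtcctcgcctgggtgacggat
They lie at chr1:163313711-163313900 (190 bases, minus strand), chr17:85688275-85688504 (230 bases, minus strand) and chr13:31806396-31806632 (237 bases, plus strand). The letters searched on both strands, in the 250 bases before the start, were TAATTA, a core of paired-class homeodomains, TAAACA, a forkhead core, TGTGGT, a RUNX core, and CANNTG, the E-box of Twist-type factors. Prrx1 held 1 match to TAATTA, which 4.84% of 32851 promoter windows held, and so did 1 of the 2 windows of Tfap2a, a gene that was lower in BALB/c wild type samples. Foxc1 held 1 match to TGTGGT, held by 14% of windows. Six2 held none of the 4, and none of the 5 genes held TAAACA (12% of windows) or CANNTG (66.2% of windows) in these windows. The windows of Foxc1 (70.8% G and C) and Six2 (64.8%) were above the median of all windows (52.4%), and that of Prrx1 (47.6%) was below. The files hold no base calls, so whether the strains differ in these stretches was not analysed here.

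**Figure D5:**
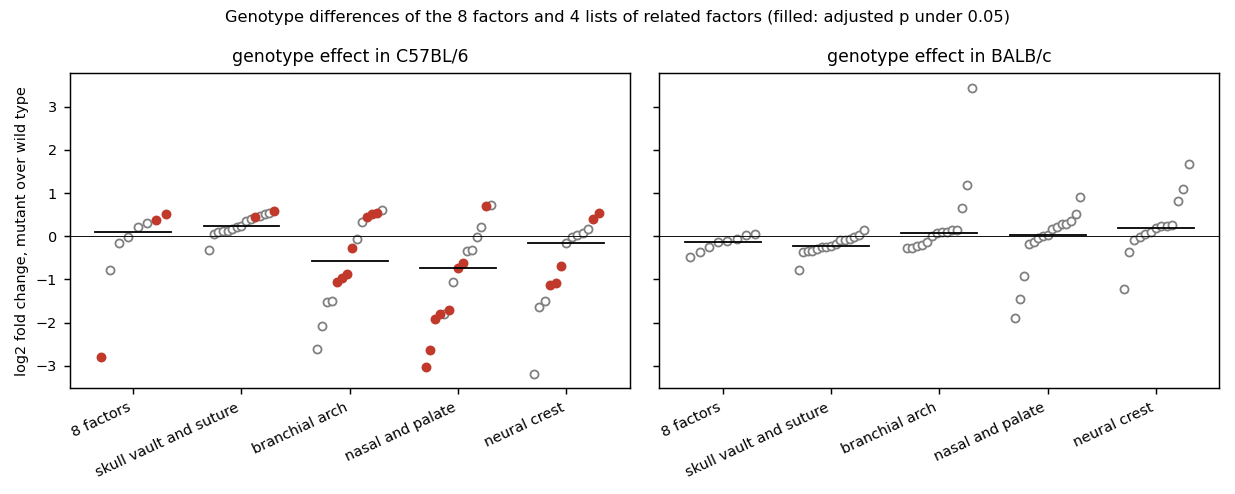
Log2 fold change, mutant over wild type, of the 8 factors and of the tested genes of 4 lists of related factors, in C57BL/6 (left) and BALB/c (right), where points are genes, filled ones passed an adjusted p of 0.05 and the line is the list's median. In C57BL/6 the nasal and palate list reaches down to -3.03 (Pax7) and the skull vault list has its called genes above 0, whereas no point is filled in BALB/c.

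Related factors were followed in 4 lists, whose counts stand beside 11.3% higher and 12.6% lower of all genes for genotype in C57BL/6. Of 15 skull vault and suture factors, all tested, 2 rose and 0 fell in C57BL/6 mutants, and the list's median was 0.23 against -0.004 over all genes tested. Without mutant replicate 4 the number called was 5, where 4833 of 16500 genes were called, against 3867 of 16190 in the main fit. En1, an engrailed homeobox gene of the skull's growth, read 16.98 CPM ± 1.84 (SD, n = 3) in wild type and 25.6 ± 2.28 in mutant samples, a rise of 0.59 (SE 0.084, adjusted p 0.001). Twist1, a basic helix-loop-helix factor that keeps sutures open, read 67.2 CPM ± 17.4 in wild type and 92.1 ± 5.68 in mutant samples (0.46, SE 0.145, adjusted p 0.0405), a call lost with total count scaling (adjusted p 0.0719) and without mutant replicate 5 (adjusted p 0.0821) or 6 (adjusted p 0.127), with a Y-linked covariate (adjusted p 0.0759) and in a fit of the C57BL/6 samples alone (adjusted p 0.155). Between the wild type strains 12 of these 15 were higher in BALB/c and 1 was lower, with a median of 1.01 against -0.001 (22.8% of all genes higher, 25.6% lower). In mutants 6 were higher and 1 was lower (18% and 18.9% of all genes). The part of the osteoblast, cartilage and nasal tissue, whose marker sums are given above, was not tested for this list.

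Of 17 branchial arch factors, 14 passed the filter, and in C57BL/6 mutants 3 rose and 4 fell, with a median of -0.57. The 3 that rose were distal-less homeobox genes, of which Dlx5 and Dlx6 pattern the lower jaw. Dlx6 rose by 0.53 (SE 0.099, adjusted p 0.00398), Dlx3 by 0.53 (SE 0.079, adjusted p 0.00136) and Dlx5 by 0.46 (SE 0.147, adjusted p 0.0425). The Dlx5 call was lost without mutant replicate 5 (adjusted p 0.0814) or 6 (adjusted p 0.143), with total count scaling (0.28, adjusted p 0.0817) and with a Y-linked covariate (adjusted p 0.0676). In a fit of the C57BL/6 samples alone Dlx5 (adjusted p 0.16), Dlx6 (adjusted p 0.0549) and Gsc (adjusted p 0.0562) were not called. Among those that fell, Gsc, the goosecoid homeobox gene, read 5.03 CPM ± 0.972 (SD, n = 3) in wild type and 2.41 ± 0.739 in mutant samples (-1.06, SE 0.208, adjusted p 0.00519). Eya2 and Eya1, cofactors of Six2, changed by -0.96 (SE 0.126, adjusted p 0.000683) and -0.87 (SE 0.162, adjusted p 0.00402). The osteoblast sums given above were higher, and the cartilage and nasal sums lower, in all C57BL/6 mutants than in all C57BL/6 wild type samples. The part of these tissues in the branchial arch results was not tested. Between the wild type strains 3 were higher and 5 lower in BALB/c (22.8% and 25.6% of all genes), with a median of -0.03. In mutants 4 were higher and 2 lower (18% and 18.9% of all genes).

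Of 17 nasal and palate factors, 16 were in the table and 15 passed the filter, and in C57BL/6 mutants 1 rose and 7 fell, with a median of -0.74. Between the wild type strains 2 were higher and 8 lower in BALB/c (22.8% and 25.6% of all genes), with a median of -0.36. Between the mutants 4 were higher and 3 lower in BALB/c (18% and 18.9% of all genes). Pax7, the paralogue of Pax3, read 3.84 CPM ± 2.59 in wild type and 0.466 ± 0.242 in mutant samples (-3.03, SE 0.772, adjusted p 0.0168). Pax9 (-2.64, SE 0.858, adjusted p 0.0439) and Pax1 (-1.91, SE 0.501, adjusted p 0.019) fell too. Leaving out wild type replicate 1 ended the calls of Pax7, Pax9 and Pax1 (adjusted p 0.082, 0.139 and 0.0735), as did leaving out mutant replicate 5 (0.0585, 0.0787 and 0.0633) or 6 (0.0624, 0.125 and 0.0649). Pax9 also lost its call without wild type replicate 2 (adjusted p 0.0663) or 3 (adjusted p 0.0528) and with a Y-linked covariate (adjusted p 0.0876). In a fit of the C57BL/6 samples alone Pax9 (adjusted p 0.146) and Pax1 (adjusted p 0.0685) were not called. The nasal epithelium markers given above for Pax3 fell in the same samples, and their part in these results was not tested.

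Of 13 neural crest factors, all tested, 2 rose and 3 fell in C57BL/6 mutants, with a median of -0.17. Between the wild type strains 1 was higher and 5 lower in BALB/c (22.8% and 25.6% of all genes), with a median of -0.32. Between the mutants 3 were higher and 2 lower in BALB/c (18% and 18.9% of all genes). Zeb2 rose by 0.55 (SE 0.091, adjusted p 0.00221) and Snai1 by 0.40 (SE 0.076, adjusted p 0.00455), both repressors of the epithelial state. Sox5 (-1.14, SE 0.202, adjusted p 0.00309) and Sox9 (-1.09, SE 0.248, adjusted p 0.0103), which also act in cartilage, fell with the cartilage markers given above, and that list's part was not tested. Tfap2b, the paralogue of Tfap2a, fell by 0.70 (SE 0.208, adjusted p 0.032). That call was lost without wild type replicate 1 (-0.44, adjusted p 0.15), without mutant replicate 5 (adjusted p 0.104) or 6 (adjusted p 0.121) and in a fit of the C57BL/6 samples alone (adjusted p 0.114). Snai1 was not called with total count scaling (0.20, adjusted p 0.0873). In BALB/c 0 genes of any of the 4 lists were called with edgeR. At an unadjusted p under 0.05 there were 3 skull vault, 1 branchial arch, 3 nasal and palate and 3 neural crest factors, beside 11.7% of all genes, and DESeq2 called 0, 1, 1 and 2, beside 2% of all genes.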

How the data were processed

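Raw gene counts from 12 mRNA libraries were analysed, and per the submitters' processing notes bcl2fastq, TopHat2 2.0.6, HTSeq and DESeq2 were used with build mm10. The authors deposited counts per gene with a gene-model length and an RPKM value for each. The deposited RPKM equalled the count per kilobase and per 1 library total of each sample, and was used only for that check. The deposited counts were all even (0 odd), as if each fragment added both mates. A second table deposited by the authors holds group comparisons, made with DESeq2 per the file headers, with log2 fold change, p-value and q-value. 0 value columns belonged to no sample and 0 rows had no gene name. The strand setting is not given in the sources used here.

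Counts were fitted with edgeR 4.0.16 in R 4.3.3: filterByExpr (minimum count 10), TMM scaling, 1 mean per group over all 12 samples, quasi-likelihood tests and Benjamini-Hochberg adjustment over 16190 genes. Data were simulated with 1 common spread for all genes and no outlying sample. There, on 15900 genes, 94% of those changed by 1 on the log2 scale were recovered in the C57BL/6 comparison. Of the genes called, 5.37% were false. The changed genes had a mean of at least 1 CPM, and changes below 1 were not simulated. The rates thus do not cover smaller differences or genes of wider spread, such as Pax3. Total counts were 27.2 M to 46.5 M per sample. Among the members the standard error of the C57BL/6 genotype difference was largest for Pax3 (8 to 762 counts per sample) and Tfap2a (24 to 86). The members and the lists of related and marker genes were chosen with earlier results of these data known. All 8 members were named. From each related list up to 3 called genes in each direction with the largest change and a mean of at least 1 CPM were named, for the genotype comparisons and the interaction, and for each member the 2 genes of nearest profile. A few items that these rules would name are not reported here.

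The alternatives were DESeq2 1.42.0, RLE size factors, total count scaling, no filter on low counts, a fit of only the groups compared, a Y-linked covariate and leaving out each sample. Counts halved to read pairs were added after seeing the data. For the ratios, raw counts and group medians were tried.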

Additional observations from a re-analysis of the deposited data

Results flagged for a closer look

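The genotype effect differed between the strains for Foxc1 among the 8 factors, by a test of the interaction across all genes (BALB/c effect minus C57BL/6 effect -0.34, SE 0.082, adjusted p 0.0279, edgeR). Foxc1 was higher in 3 of 3 C57BL/6 mutants than in any C57BL/6 wild type sample, and the BALB/c genotypes overlapped. The interaction call held in 6 of 12 fits that left out 1 sample. It was lost with a Y-linked covariate (adjusted p 0.0552) and with total count scaling (-0.11, adjusted p 0.365).

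Among the related factors the same test passed for 1 of 15 skull vault and suture, 3 of 14 branchial arch, 1 of 15 nasal and palate and 3 of 13 neural crest factors, beside 10% of all genes tested. The effect was more positive in C57BL/6 for En1 (-0.62, SE 0.118, adjusted p 0.0108), Snai1 (-0.48, SE 0.107, adjusted p 0.0203) and Dlx3 (-0.39, SE 0.111, adjusted p 0.049). For the others the effect was more negative in C57BL/6. Eya1 and Eya2, cofactors of Six2, differed by 0.97 (SE 0.231, adjusted p 0.026) and 0.75 (SE 0.178, adjusted p 0.0254), and Mn1 differed by 0.44 (SE 0.120, adjusted p 0.0404). Sox5 and Sox9, which act in cartilage, differed by 1.962 (SE 0.288, adjusted p 0.00326) and 1.32 (SE 0.350, adjusted p 0.0379). The cartilage list summed to 4552 to 6680 CPM in C57BL/6 wild type and 236 to 2563 CPM in C57BL/6 mutant samples. In BALB/c it summed to 549 to 1651 CPM in wild type and 959 to 4764 CPM in mutant samples. The part of this tissue in the Sox5 and Sox9 results was not tested. Sox5 read 17.04 CPM ± 2.29 (SD, n = 3) in C57BL/6 wild type, 7.73 ± 1.83 in C57BL/6 mutant, 5.29 ± 1.01 in BALB/c wild type and 9.37 ± 1.97 in BALB/c mutant samples. Of 12 fits that left out 1 sample, the call held in 12 for En1 and Sox5, in 11 for Snai1 (lost without C57BL/6 mutant replicate 6, adjusted p 0.0565), in 5 for Eya1, in 4 for Eya2 and Sox9, in 3 for Dlx3 and in 2 for Mn1. With total count scaling Dlx3 was at -0.16 (adjusted p 0.34) and Snai1 at -0.26 (adjusted p 0.161), and neither was called. Dlx3 was also not called with RLE size factors (adjusted p 0.0522), no filter on low counts (0.0582), the Y-linked covariate (0.0945) or halved counts (0.053), nor Mn1 with no filter (0.053) or the Y-linked covariate (0.0631).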

How the results depend on the processing

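No paired analysis was possible because the groups share no replicate number. The number of the 8 factors called for genotype in C57BL/6 (3) was 1 in a fit of only the groups compared and 2 to 5 when 1 sample was left out. The interaction (1) became 2 with DESeq2, 0 with total count scaling, 0 with the Y-linked covariate and 0 to 3 with 1 sample left out. The strain counts were 6 in wild type with total count scaling and, with 1 sample left out, 7 to 8 in wild type and 2 to 4 in mutants, the BALB/c genotype count stayed at 0, and the mean log2 ratio of Prrx2 to Prrx1 ran from -0.16 to -0.01 and that of Foxc2 to Foxc1 from 0.03 to 0.17 with 1 sample left out. The causes were not tested.

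Over the refits of the 8 factors, 495 values kept direction and side of the threshold, 31 lost a call, 15 gained one and 19 changed sign, each for a difference that was not called. With total count scaling Prrx1 (0.063) and Prrx2 (0.060) for strain in mutants and Alx1 (0.13) for the interaction changed sign. With the Y-linked covariate Alx1 in C57BL/6 (0.012) and Six2 for the interaction (-0.038) did. With 1 sample left out, Alx1 in C57BL/6 ran from -0.13 to 0.054, and in BALB/c Foxc1 ran from -0.022 to 0.075, Foxc2 from -0.002 to 0.11 and Pax3 from -0.54 to 0.049. For strain in mutants Prrx1 then ran from -0.10 to 0.003 and Pax3 from -1.98 to 1.48, and for the interaction Alx1 ran from -0.168 to 0.017 and Six2 from -0.047 to 0.096. The Pax3 interaction (2.55, adjusted p 0.222) was called only without C57BL/6 mutant replicate 4 (5.49, adjusted p 0.000534).

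Total count scaling, against medians of all genes within 0.01 of 0 with TMM, put that median at -0.20 for genotype in C57BL/6, -0.12 for strain in wild type, 0.11 for strain in mutants and 0.24 for the interaction. The share of called genes that were higher went from 47.5% to 13.2%, 47.1% to 31.2%, 48.8% to 67.8% and 54.4% to 90.5% in these comparisons. Genes called over all tested were 3867 for genotype in C57BL/6, 1458 in a fit of only the groups compared and 1724 to 4833 with 1 sample left out. In BALB/c they were 22, and 323 with DESeq2, 71 with only the groups compared, 4 with total count scaling, 4 with the Y-linked covariate and 0 to 95 with 1 sample left out. For the interaction they were 1626, 2707 with DESeq2, 1847 with total count scaling, 1106 with the Y-linked covariate and 624 to 3129 with 1 sample left out. For strain in wild type they were 7847, 7130 with total count scaling and 6567 to 7319 with 1 sample left out. For strain in mutants they were 5968, and 4500 to 5374 with 1 sample left out. For the related lists in C57BL/6, leaving out 1 sample gave 1 to 5 called skull vault, 5 to 9 branchial arch, 3 to 9 nasal and palate and 4 to 6 neural crest factors, and for the interaction 1 to 4, 0 to 7, 0 to 4 and 1 to 5.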
